A study of Mus musculus with 6 samples.

Results

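RNA levels of 32 mouse genes linked to LINE-1 silencing and retroelement restriction differed in both directions within the EO771 mammary carcinoma line. Cancer stem cells (CSC) were compared with the other cells (non-CSC) of this line. The 32 include the TET genes, whose enzymes oppose DNA methylation. The genes were taken by symbol from a table of 49523 symbols, and all 32 were in it; 31 passed a filter on low counts, and Tet1 did not. They were chosen by function and fall into 3 roles. The first holds 10 genes of DNA methylation, its removal and its readers. The second holds 13 genes of histone H3 lysine 9 (H3K9) methylation and the HUSH complex, and the third 9 factors that act on retroelement RNA or on its DNA copy.

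EO771 is a mouse mammary carcinoma line, and the values are RNA-seq read counts per gene. The labels name 3 CSC libraries and 3 non-CSC libraries of this line and give no treatment, time or genotype for either. The way the CSC were isolated, and whether replicates came from separate cultures, are not in the labels, so the p-values rest on a spread between libraries that may be technical. According to the series title the study is about a LINE-1 element with enhancer activity on SEMA3C, and its design is the comparison of CSC and non-CSC.

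LINE-1 elements copy themselves through an RNA that is translated, bound by its own proteins and reverse transcribed at the insertion site. In mammalian cells they are held in check by methylation of their promoter DNA, by H3K9 methylation that is placed through KRAB zinc finger proteins with Trim28 and Setdb1 or through HUSH, and by cytosolic and nuclear factors that edit, degrade or bind their RNA or limit its copying. LINE-1 RNA itself was not analysed here, since the values are per gene symbol.

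The libraries held 27099879 to 28205651 counts in CSC and 32204112 to 35971131 in non-CSC. Levels are given in CPM, the usual depth-scaled read count, computed here with TMM-scaled library sizes, and a change as the log2 fold change of CSC over non-CSC, with the adjusted p of edgeR's quasi-likelihood test and a threshold of 0.05. Of 12 mammary epithelial markers 10 were tested, 5 rose, 2 fell and 3 did not pass, and the list summed to 4155 to 4340 CPM in CSC and 3396 to 3548 CPM in non-CSC. The keratin gene Krt7 rose by 1.08 on the log2 scale, and Epcam and Krt5 fell by 1.05 and 1.85. The epithelial keratin genes Krt8 and Krt18 were at 863 and 1267 CPM in CSC and 715 and 1255 CPM in non-CSC, whereas Cdh1, which encodes E-cadherin, was at 0.752 CPM in CSC and 0.952 CPM in non-CSC, and Pgr and Elf5 were at 0.0819 and 0.0121 CPM in CSC and 0.0106 and 0 in non-CSC. Of 11 genes used as markers of cancer stem cells 9 were tested, 5 rose, 3 fell and 1 did not pass, and the list summed to 3485 to 3584 CPM in CSC and 3723 to 3776 CPM in non-CSC. Lgr5 and Abcg2 rose by 1.29 and 1.14 on the log2 scale, while Itga6 fell to 847 CPM in CSC against 1449 CPM in non-CSC. Of 10 leukocyte markers 4 had no count in any library (Cd3e, Adgre1, Tyrobp and Ms4a1), and the list summed to 35.98 to 37.02 CPM in CSC and 27.3 to 29.5 CPM in non-CSC. Of 7 fibroblast markers Lum had no count, and the list summed to 1196 to 1243 CPM in CSC and 555 to 589 CPM in non-CSC, nearly all of it Dcn. Of 6 endothelial markers Tek and Emcn had no count, with sums of 5.83 to 6.03 CPM in CSC and 1.38 to 1.75 CPM in non-CSC, and the 5 erythroid markers summed to 1.92 to 2.07 CPM in CSC and 1.05 to 1.40 CPM in non-CSC. Of the 3 leukocyte markers tested, 2 rose by at least 2-fold and 1 fell. All 3 fibroblast markers tested rose, 2 of them by at least 2-fold. Of the 2 endothelial markers tested 1 rose and 1 fell, and the 1 erythroid marker tested rose. Of the tested mammary epithelial markers 70% were called and of the tested cancer stem cell markers 88.9%. Beside these, 66.5% of all genes tested and 74.0% of protein-coding genes were called. The part of these marker levels in the results was not tested.

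Of the 31 members tested, 15 fell and 9 rose in CSC and 7 did not pass the test. Many genes of the transcriptome passed it too: of 17630 genes tested 66.5% were called, against 77.4% of the members, and of the 12602 protein-coding genes 74.0%. Lower calls made up 33.1% of all genes and higher calls 33.4%. Of the 12602 protein-coding genes 4854 were lower and 4468 higher. The median log2 fold change was -0.11 over the members and 0.01 over all genes tested. Changes of at least 1.5-fold were called for 7 of the 31 members tested, 2 higher and 5 lower. Of all genes tested 26.7% had such a call, 15.5% higher and 11.2% lower. Groups did not overlap for 26 of the 31 members tested, beside 69.3% of all genes tested. With scaling by library size alone 12 members were higher and 12 lower, and with upper-quartile scaling 12 and 13. Since the samples are bulk RNA, fewer cells with a transcript and less of it per cell cannot be told apart.

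**Figure D1:**
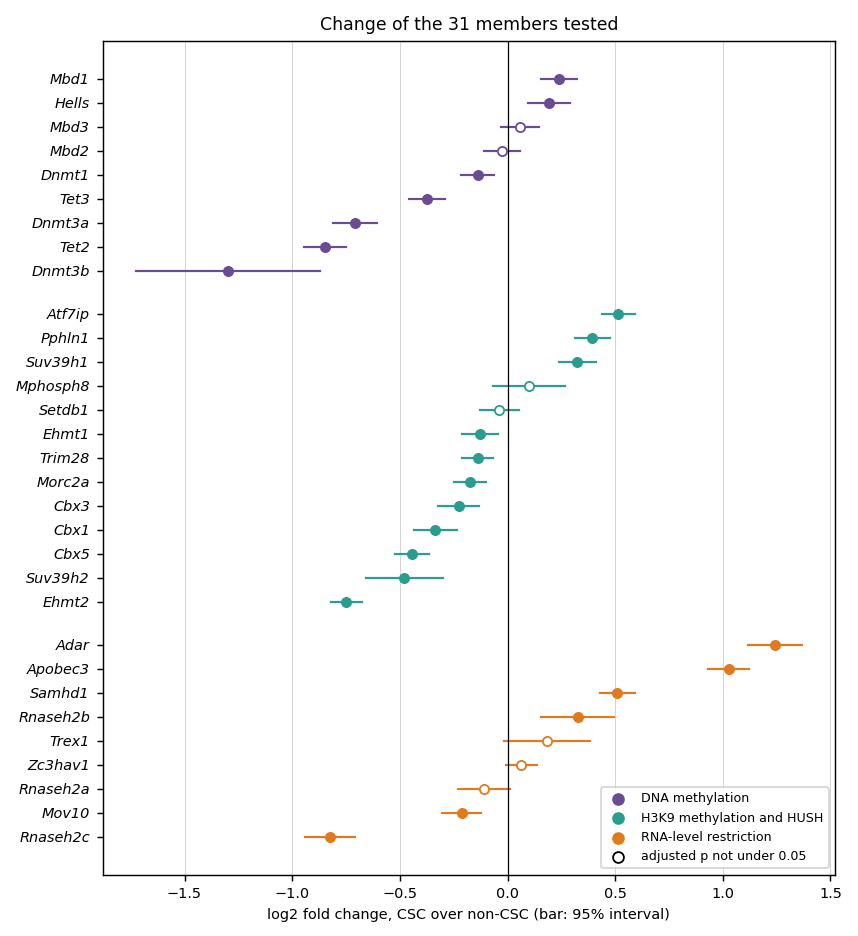
Log2 fold change of CSC over non-CSC for the 31 members tested, with 95% intervals, by role; filled points passed the test and open points did not. Adar and Apobec3 lie farthest to the right, at 1.24 and 1.03, and Dnmt3b, Tet2 and Rnaseh2c farthest to the left, at -1.30, -0.85 and -0.83.

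The largest rises were those of 2 enzymes that deaminate bases. Adar, which converts adenosine to inosine in base-paired RNA, rose 2.37-fold, and Apobec3, a cytidine deaminase that restricts retroviruses and retrotransposons in mice, rose 2.04-fold. The RefSeq promoter table (GRCm38.p6, 250 bases before to 50 after each annotated start) holds 3 entries for Adar and 2 for Apobec3. The entry of each that holds the letters GAANNGAAA, which contain the core that interferon regulatory factors are known to bind, is printed because these are the members with the largest rises and because interferon-stimulated genes are compared with them further on. Capitals mark the match, which begins 28 bases downstream of the Adar start and 37 bases downstream of the Apobec3 start, the second on the opposite strand. The entries are chr3:89730468-89730767 on the plus strand and chr15:79892158-79892457 on the plus strand.
Adar: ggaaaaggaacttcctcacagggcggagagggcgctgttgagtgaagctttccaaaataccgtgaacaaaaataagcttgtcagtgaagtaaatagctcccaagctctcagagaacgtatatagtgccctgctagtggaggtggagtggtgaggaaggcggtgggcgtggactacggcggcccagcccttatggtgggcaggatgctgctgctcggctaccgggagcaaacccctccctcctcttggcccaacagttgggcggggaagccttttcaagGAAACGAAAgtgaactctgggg
Apobec3: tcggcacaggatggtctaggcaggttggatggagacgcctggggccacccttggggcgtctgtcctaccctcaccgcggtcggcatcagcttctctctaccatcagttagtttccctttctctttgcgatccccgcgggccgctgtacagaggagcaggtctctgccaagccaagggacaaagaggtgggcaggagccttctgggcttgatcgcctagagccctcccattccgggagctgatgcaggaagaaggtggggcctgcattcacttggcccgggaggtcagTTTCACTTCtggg

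The letters were chosen after these sequences had been read, so that both hold them is no finding. Searched on both strands, they were in 7.52% of all 32851 promoter entries and in 2 of the 44 entries of the 29 members that have one. They were also in 12 of the 25 entries of the 22 interferon-stimulated genes that have one, from 11 of these genes. A match is a description of letters and not a site.

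Of the DNA methylation genes, 5 of 9 tested fell, 2 rose and 2 did not pass, with a median log2 fold change of -0.14. The called share was 77.8%, beside 66.5% of all genes tested and 74.0% of protein-coding genes. The falls were those of all DNA methyltransferase genes on the list and of the TET genes that were tested. Dnmt3a, a methyltransferase that places new methyl groups, lies on chromosome 12 at 3801559 to 3914443 (GRCm38). Its level was 31.1, 30.6 and 30.9 CPM in the CSC libraries and 51.7, 51.9 and 47.7 CPM in the non-CSC libraries. The groups lay well apart, with a log2 fold change of -0.71 ± 0.049 (SE; edgeR adjusted p = 9.40e-12). The median change of genes on chromosome 12 differed from that of all genes by -0.35, and with each chromosome centred the change of Dnmt3a was -0.36, still called. The 30 tested genes nearest to it had a median that differed from that of all genes by 0.06.

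Dnmt3b, the other methyltransferase for new methylation, was scarce, with 36, 28 and 23 counts in the CSC libraries and 103, 75 and 78 in the non-CSC libraries. It fell by 1.30 on the log2 scale (95% interval -1.73 to -0.87, edgeR adjusted p = 1.20e-05), and the width of the interval reflects these counts. It shares 11.5% of the 50-base words of its longest transcript with Dnmt3c. Dnmt1, the maintenance methyltransferase that copies methylation after replication, was at 338, 313 and 319 CPM in CSC and 357, 358 and 353 CPM in non-CSC. The groups did not overlap, but the fall was small, at 0.14 on the log2 scale (edgeR adjusted p = 0.00195), and it was not called with upper-quartile or library-size scaling.

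Per kilobase of exon, Dnmt1 stood far above the other methyltransferase genes in both groups. It was at 43.8 ± 1.79 CPM per kilobase in CSC and 48.3 ± 0.346 in non-CSC (SD, n = 3 each), Dnmt3a at 1.85 ± 0.0171 in CSC and 3.03 ± 0.142 in non-CSC, and Dnmt3b at 0.202 ± 0.0508 in CSC and 0.4995 ± 0.124 in non-CSC. The reads of Dnmt1 were 10.2 to 10.9 times those of Dnmt3a in the CSC libraries and 6.90 to 7.40 times in the non-CSC libraries. This is 1 of 7 ratios between related members, chosen after their values were seen and given as descriptions. An exact two-sided permutation test of 3 against 3 libraries cannot pass, since the smallest p it allows is 0.1.

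The TET enzymes oxidise methylated cytosine and so oppose methylation. Tet2, on chromosome 3 at 133463677 to 133545136, was at 42.7, 40.1 and 45.1 CPM in CSC and 78.6, 77.7 and 73.8 CPM in non-CSC. All CSC libraries were below all non-CSC libraries, with a log2 fold change of -0.85 ± 0.047 (SE; edgeR adjusted p = 2.32e-13). The median of its 30 neighbours differed from that of all genes by -0.20. Tet3 fell less, by 0.37 (edgeR adjusted p = 2.71e-08), to 71.4 ± 1.66 CPM in CSC against 92.5 ± 3.24 CPM in non-CSC (SD, n = 3 each). The ratio of Tet2 to Tet3 reads was 0.578 to 0.622 in CSC and 0.828 to 0.831 in non-CSC. Tet1, the third of the family, had 2, 4 and 1 counts in the CSC libraries and 4, 1 and 0 in the non-CSC libraries, too few to test.

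The other DNA methylation genes changed little. Hells, a chromatin remodeller needed for methylation of repeats, was at 64.2, 65.0 and 66.0 CPM in CSC and 53.5, 56.2 and 61.2 CPM in non-CSC. It rose by 0.19 on the log2 scale (edgeR adjusted p = 0.00112), while the median of its neighbours differed from that of all genes by -0.25, and with each chromosome centred its change was 0.45. Of the genes of the methyl-CpG binding domain family, Mbd1 rose by 0.24 (edgeR adjusted p = 1.50e-05). Its level was 77.0 ± 0.645 CPM in CSC against 65.1 ± 1.86 CPM in non-CSC (SD, n = 3 each). Mbd2 had a log2 fold change of -0.03 (95% interval -0.11 to 0.06) and Mbd3, a subunit of the NuRD complex, of 0.06 (-0.03 to 0.14), and neither passed.

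**Figure D2:**
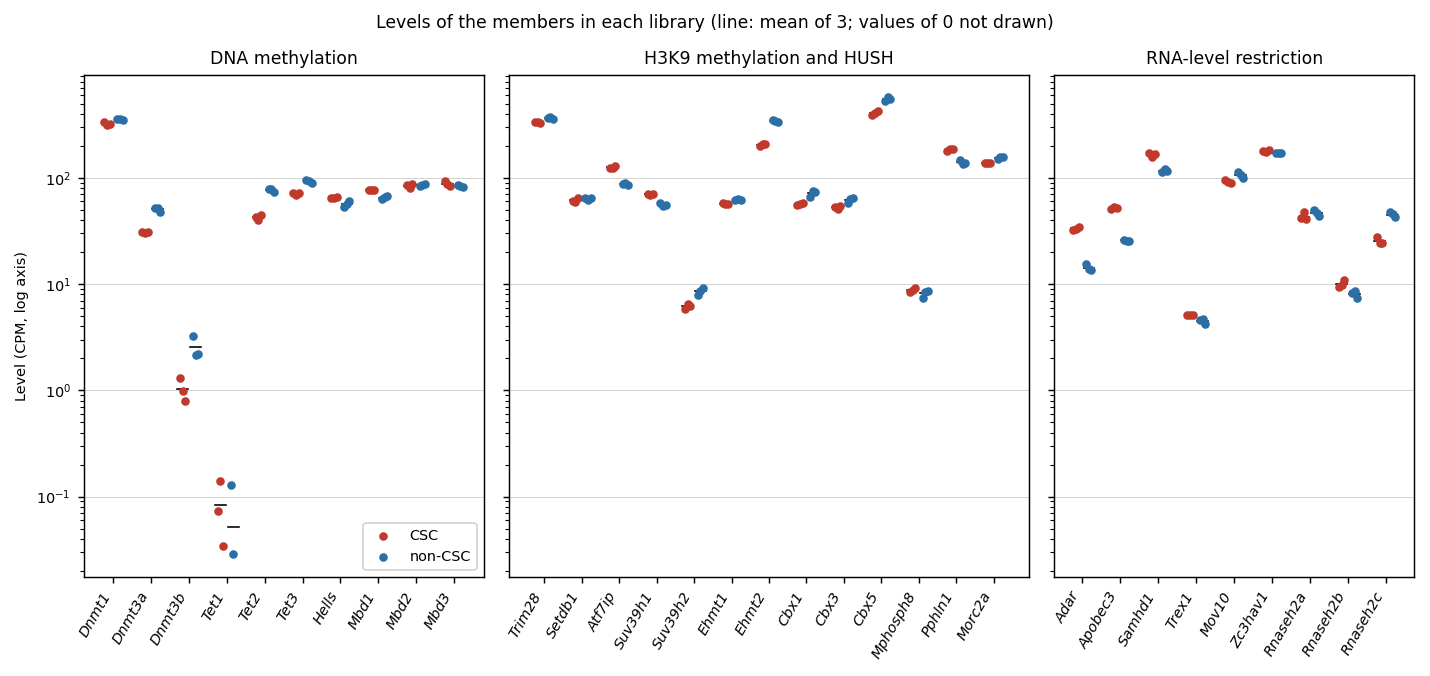
Level in CPM (log axis) of each of the 32 members in the 3 CSC and 3 non-CSC libraries, by role; each point is a library, lines are means of 3, and values of 0 are not drawn. Adar and Apobec3 stand higher in CSC, and Dnmt3a, Tet2, Ehmt2, Cbx5 and Rnaseh2c stand higher in non-CSC.

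Other genes of DNA methylation were split. Of 24 chosen for their part in it, 20 were tested, 7 rose, 9 fell and 4 did not pass, with a median of -0.08. The called share was 80%, beside 66.5% of all genes tested and 74.0% of protein-coding genes. Mat2a, which makes the methyl donor S-adenosylmethionine, rose to 374 ± 5.48 CPM in CSC against 193 ± 14.7 CPM in non-CSC (SD, n = 3 each). Uhrf2, related to the Dnmt1 cofactor Uhrf1, fell by 0.77 on the log2 scale and Idh2, a mitochondrial isocitrate dehydrogenase, by 0.53. Uhrf1 itself, chosen after its values were seen, was at 286 CPM in CSC and 273 CPM in non-CSC and did not pass (edgeR adjusted p = 0.0874). Since Dnmt1, Hells and Uhrf1 are known to be expressed with DNA replication, the genes of that process were counted as well. Of 30 tested, 16 rose and 9 fell, with a median of 0.18. The called share was 83.3%, beside 66.5% of all genes tested and 74.0% of protein-coding genes. Among these 30 genes Ccne1, Tyms and Gins3 rose by 0.77, 0.66 and 0.66 and Ccne2 by 0.50 on the log2 scale. The part of replication in the levels of the members was not tested.

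Of the 13 genes of H3K9 methylation and HUSH, all tested, 8 fell, 3 rose and 2 did not pass, with a median of -0.14. The called share was 84.6%, beside 66.5% of all genes tested and 74.0% of protein-coding genes. Only Ehmt2 changed by 1.5-fold or more among these 13. Ehmt2 encodes G9a, which with its partner GLP, the product of Ehmt1, places mono- and dimethylation on H3K9. It lies on chromosome 17 at 34898463 to 34914073, and its level was 201, 207 and 206 CPM in the CSC libraries and 349, 345 and 338 CPM in the non-CSC libraries. The groups were far apart relative to their spread, with a log2 fold change of -0.75 ± 0.035 (SE; edgeR adjusted p = 7.75e-15), and its neighbours were not shifted downward (a difference of 0.10 from the median of all genes). Ehmt1 fell by 0.13 (edgeR adjusted p = 0.00916) and was not called under upper-quartile or library-size scaling. The reads of Ehmt2 were 3.46 to 3.66 times those of Ehmt1 in CSC and 5.46 to 5.60 times in non-CSC.

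The SUV39H enzymes, which place H3K9 trimethylation at repeats and pericentric heterochromatin, moved in opposite directions. Suv39h1 was at 70.7, 69.6 and 70.9 CPM in CSC and 58.5, 54.8 and 55.5 CPM in non-CSC, higher in every CSC library (log2 fold change 0.32, edgeR adjusted p = 4.21e-07). The median of its 30 neighbours differed from that of all genes by 0.17, and with each chromosome centred its change was 0.22, still called. Suv39h2 was at 5.81, 6.47 and 6.20 CPM in CSC and 7.97, 8.56 and 9.20 CPM in non-CSC, lower in every CSC library (log2 fold change -0.48, edgeR adjusted p = 3.87e-05). Per kilobase of exon Suv39h1 was the more abundant, at 13.4 CPM in CSC and 10.7 CPM in non-CSC, against 1.40 CPM in CSC and 1.94 CPM in non-CSC for Suv39h2. Exons of Gm14820, an antisense gene, cover 14.6% of the exon bases of Suv39h1 and share 20.5% of its 50-base words. Gm14820 is not among the symbols counted. Other genes cover 9.98% of the exon bases of Suv39h2, chiefly Dclre1c, which was at 10.5 CPM in CSC and 11.2 CPM in non-CSC. Both levels are uncertain, by an amount that was not measured. In reads the ratio of Suv39h1 to Suv39h2 was 10.8 to 12.2 in CSC and 6.03 to 7.34 in non-CSC.

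The HP1 proteins bind methylated H3K9, and their 3 genes all fell. Cbx5, which encodes HP1 alpha, was at 390, 409 and 422 CPM in CSC and 533, 572 and 557 CPM in non-CSC, a log2 fold change of -0.45 ± 0.038 (SE; edgeR adjusted p = 5.31e-10). Cbx1, for HP1 beta, fell by 0.33 and Cbx3, for HP1 gamma, by 0.23 on the log2 scale (edgeR adjusted p = 2.49e-06 and 0.000159). No library of CSC reached the lowest non-CSC library for any of them, and the direction and call of all 3 held under every alternative run. Cbx3 shares 3.997% of its 50-base words with other genes, its processed pseudogenes among them.

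The Trim28 and Setdb1 axis itself changed little. Trim28, the corepressor that KRAB zinc finger proteins recruit, was at 335, 334 and 330 CPM in CSC and 369, 370 and 360 CPM in non-CSC. The groups did not overlap, with a fall of 0.14 on the log2 scale (edgeR adjusted p = 0.00105) that was not called with library-size scaling. Setdb1, the enzyme that Trim28 recruits to trimethylate H3K9, did not pass, with 60.9, 59.5 and 64.9 CPM in CSC and 64.2, 61.8 and 64.3 CPM in non-CSC (95% interval of the log2 fold change -0.13 to 0.05). Atf7ip, which stabilises Setdb1 in the nucleus, had the largest rise of this role, to 125 ± 3.18 CPM in CSC against 87.7 ± 1.67 CPM in non-CSC (SD, n = 3 each; log2 fold change 0.51, edgeR adjusted p = 2.23e-11), among neighbours whose median differed from that of all genes by -0.24.

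HUSH is a complex of Mphosph8, Pphln1 and Tasor that silences young LINE-1 copies and works with the chromatin compactor Morc2a. Its genes did not move together. Pphln1, which encodes periphilin, was at 179, 186 and 188 CPM in CSC and 147, 135 and 138 CPM in non-CSC and rose by 0.39 on the log2 scale (edgeR adjusted p = 5.17e-09). The median of its 30 neighbours differed from that of all genes by 0.18. Mphosph8, the H3K9me3 reader of the complex, did not pass at 8.77 ± 0.362 CPM in CSC and 8.18 ± 0.641 CPM in non-CSC (SD, n = 3 each; 95% interval of the log2 fold change -0.07 to 0.27). With each chromosome centred it was called, at 0.28. Exons of Gm16973 cover 10.7% of its exon bases, and Gm16973 was at 2.54 CPM in CSC and 2.26 CPM in non-CSC. Tasor, chosen after its values were seen, was at 88.8 CPM in CSC and 89.6 CPM in non-CSC (log2 fold change -0.01, edgeR adjusted p = 0.801). Morc2a fell by 0.17 (edgeR adjusted p = 0.000140). Exons of Tug1 cover 7.52% of the exon bases of Morc2a, and Tug1 had a log2 fold change of 0.22.

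Further genes of H3K9 methylation and its removal were likewise split. Of 32 tested, 10 rose, 13 fell and 9 did not pass, with a median of 0.01. The called share was 71.9%, beside 66.5% of all genes tested and 74.0% of protein-coding genes. Kdm1a, which encodes the demethylase LSD1, fell by 0.78 and its corepressor partner Rcor1 by 1.04 on the log2 scale, to 60.5 ± 2.12 CPM in CSC against 124 ± 2.38 CPM in non-CSC for Rcor1 (SD, n = 3 each). The median of the 30 neighbours differed from that of all genes by -0.58 for Rcor1 and by 0.05 for Kdm1a. Kdm4c, an H3K9 demethylase gene, fell by 0.58, and Zmym3, which encodes a zinc finger protein of LSD1 complexes, rose by 0.73, among neighbours whose median differed by 0.43.

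Of the 9 factors that act on retroelement RNA or on its DNA copy, 4 rose, 2 fell and 3 did not pass, with a median of 0.18. Called factors made up 66.7%, beside 66.5% of all genes tested and 74.0% of protein-coding genes. The largest rises of the members lay in this role. Adar, on chromosome 3 at 89714469 to 89753455, was at 32.6, 33.3 and 34.6 CPM in the CSC libraries and 15.3, 13.8 and 13.4 CPM in the non-CSC libraries. All CSC libraries were above all non-CSC libraries, with a log2 fold change of 1.24 ± 0.060 (SE; edgeR adjusted p = 1.40e-14), and 5.803% of all genes tested had a larger rise. Exons of Chrnb2 cover 16.8% of the exon bases of Adar, and Chrnb2 was at 1.80 CPM in CSC and 1.21 CPM in non-CSC.

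Apobec3, on chromosome 15 at 79892058 to 79918218, was at 51.4, 53.6 and 52.4 CPM in CSC and 26.04, 25.7 and 25.5 CPM in non-CSC. The libraries of each group were close together, and the log2 fold change was 1.03 ± 0.047 (SE; edgeR adjusted p = 5.10e-15). Other genes cover 8.21% of its exon bases, chiefly D730005E14Rik, which was at 4.70 CPM in CSC and 2.32 CPM in non-CSC. No source used here states whether strand was used in counting, so reads of overlapping genes cannot be told apart. Samhd1, a dNTP hydrolase that limits reverse transcription, was at 173, 159 and 168 CPM in CSC and 114, 121 and 115 CPM in non-CSC. It was higher in every CSC library, with a log2 fold change of 0.51 (edgeR adjusted p = 7.85e-11).

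The other factors changed less or did not pass. Mov10, an RNA helicase that binds LINE-1 ribonucleoprotein, was at 95.8, 91.5 and 88.8 CPM in CSC and 113, 106 and 100 CPM in non-CSC, a fall of 0.21 on the log2 scale (edgeR adjusted p = 0.000189). The median of chromosome 3 differed from that of all genes by -0.15, and with each chromosome centred the change of Mov10 was -0.06 and not called (adjusted p = 0.233). Mov10 shares 8.15% of its 50-base words with Gm7357. Zc3hav1, which encodes the antiviral protein ZAP that binds CpG-rich RNA, was at 180, 175 and 183 CPM in CSC and 172, 172 and 171 CPM in non-CSC. The CSC libraries were all higher, but the change of 0.06 did not pass (95% interval -0.01 to 0.14; edgeR adjusted p = 0.114), though it did with upper-quartile and library-size scaling and when genes with a mean of at least 50 counts were tested. Trex1, an exonuclease that degrades DNA in the cytosol, was at 5.11 ± 0.012 CPM in CSC and 4.51 ± 0.245 CPM in non-CSC (SD, n = 3 each) and did not pass (edgeR adjusted p = 0.101). All of its exon bases are also exon bases of Atrip, so its level is uncertain.

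RNase H2 has 3 subunits and removes ribonucleotides and RNA strands from RNA-DNA hybrids, and the genes for them diverged. Rnaseh2c, a structural subunit gene on chromosome 19 at 5601873 to 5602959, was at 27.7, 24.3 and 24.4 CPM in CSC and 47.2, 45.3 and 42.8 CPM in non-CSC. Its groups lay far apart, with a log2 fold change of -0.83 ± 0.056 (SE; edgeR adjusted p = 9.33e-12). Its neighbourhood was lower too: 21 of the 30 nearest tested genes fell and 2 rose, with a median that differed from that of all genes by -0.38, and with each chromosome centred its change was -0.57. Exons of Kat5 cover 24.8% of its exon bases, and Kat5 fell by 0.30 on the log2 scale.

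Rnaseh2b, the other structural subunit gene, was at 9.44, 9.83 and 11.03 CPM in CSC and 8.16, 8.56 and 7.47 CPM in non-CSC. It rose by 0.33 on the log2 scale (edgeR adjusted p = 0.00131), among neighbours of which 18 of 30 fell. Rnaseh2a, the catalytic subunit gene, was at 41.6, 47.2 and 40.6 CPM in CSC and 49.6, 46.2 and 43.9 CPM in non-CSC, so the groups overlapped. Its log2 fold change of -0.11 did not pass (95% interval -0.23 to 0.01; edgeR adjusted p = 0.0983), and it was called without the filter on low counts, at -0.14, without CSC replicate 2, at -0.19, and without non-CSC replicate 3, at -0.16. Other genes cover 14.7% of its exon bases. The reads of Rnaseh2c were 0.514 to 0.667 times those of Rnaseh2a in CSC and 0.952 to 0.980 times in non-CSC.

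**Figure D3:**
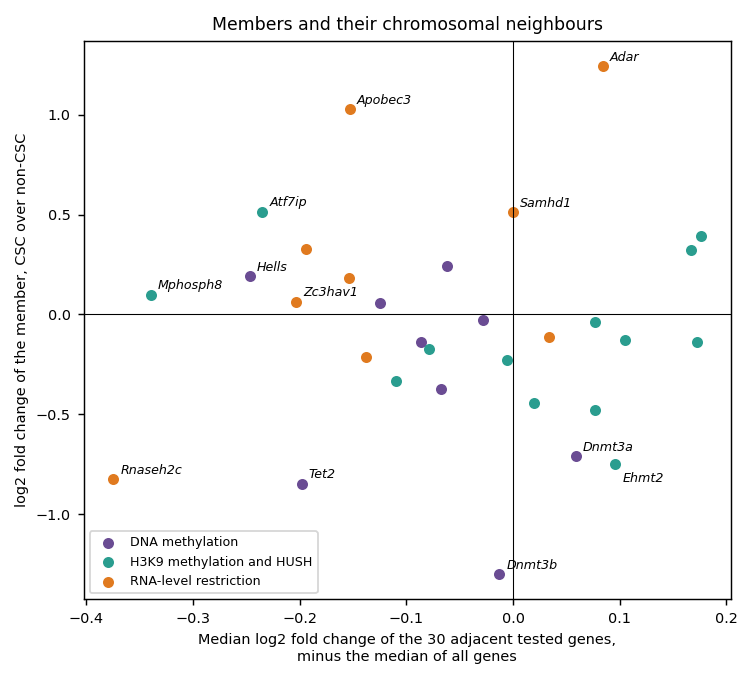
Log2 fold change of each of the 31 members tested (vertical axis) against the median log2 fold change of its 30 adjacent tested genes minus that of all genes (horizontal axis). Rnaseh2c, at -0.83, has the lowest neighbourhood at -0.38, whereas Dnmt3b, Dnmt3a and Ehmt2 fell among neighbours at -0.01, 0.06 and 0.10.

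Adar, Samhd1 and Zc3hav1 are known as genes that interferon can induce, so the interferon-stimulated genes are given beside them. Of 30 such genes 29 were tested, and 21 fell, 5 rose and 3 did not pass. The median was -1.17, beside 0.01 over all genes tested. The called share was 89.7%, beside 66.5% of all genes tested and 74.0% of protein-coding genes. The regulator gene Irf7 was at 6.03 ± 0.499 CPM in CSC and 37.4 ± 1.17 CPM in non-CSC (SD, n = 3 each), and Oas3, an oligoadenylate synthetase gene, at 3.30 ± 0.309 CPM in CSC and 48.4 ± 1.27 CPM in non-CSC. Ifi27l2a fell by 3.60 and Oasl2 by 1.66 on the log2 scale. Adar, Apobec3 and Samhd1 rose and Zc3hav1 did not pass, while 21 genes of this list fell and 5 rose. The part of interferon in these levels was not tested.

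Other factors of RNA-level restriction and RNA sensing moved in both directions. Of 39 listed, 31 were tested, 18 fell, 10 rose and 3 did not pass, with a median of -0.25. The called share was 90.3%, beside 66.5% of all genes tested and 74.0% of protein-coding genes. Of these 39, 5 are also on the interferon list, and without them 14 of 26 tested fell and 10 rose. Besides Oas3, the exonuclease gene Isg20 fell by 1.28, the endonuclease subunit gene Ercc1, whose product with Ercc4 limits LINE-1 insertion, by 0.97, and Oas1a by 0.95 on the log2 scale. Oas1a shares 57.6% of its 50-base words with other genes, so its level is uncertain. Chosen after its values were seen, Eif2ak2, which encodes the RNA-sensing kinase PKR, rose to 113 ± 3.66 CPM in CSC against 82.6 ± 3.57 CPM in non-CSC (SD, n = 3 each).

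**Figure D4:**
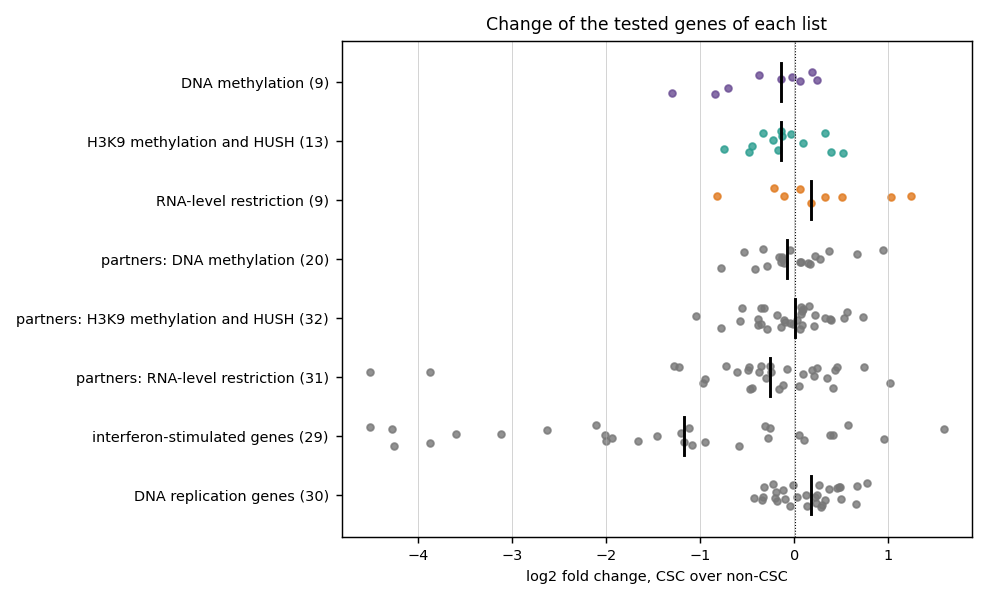
Log2 fold change of CSC over non-CSC for the tested genes of the 3 roles (coloured) and of the 5 further lists (grey); each point is a gene, black lines are list medians, the dotted line is the median of all genes, and the number tested is in brackets. The interferon-stimulated genes reach -4.51 with a median of -1.17, while the RNA-level restriction members have a median of 0.18.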

How the data were processed

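RNA was measured in 3 CSC and 3 non-CSC libraries of EO771 cells, grouped by title. The authors deposited a table of raw counts, unnormalized integers for each symbol; the submitters' processing notes name GRCm38. No source used here gives the aligner, counter, annotation, strand setting or filters. The members and lists were chosen with earlier results of these data known.

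Counts were filtered with filterByExpr, scaled with TMM (factors 0.974 to 1.03) and fitted with edgeR 4.0.16 (quasi-likelihood, robust, no covariate), adjusting by Benjamini-Hochberg over all 17630 genes tested. The method was tested on simulated data. Replicates differed beyond sampling noise (chi-square per degree of freedom 3.21 to 7.30), so all were kept. The alternatives were 3 other scalings, 2 other filters, DESeq2 1.42.0, limma-voom (limma 3.58.1), the robust setting off, each library left out, a replicate block, and an offset that centres each chromosome. Fold thresholds of 1.5 and the 7 ratios were added after the data were seen.

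Positions came from RefSeq (GRCm38.p6). Exon overlap, 50-base words and exon length (the union over all transcripts, which lowers values per kilobase of genes with many isoforms) came from GENCODE M21. Neighbours are the 30 nearest tested genes on the chromosome. Genes named outside the members are, of each list of partners, interferon-stimulated and replication genes, up to 4 with the largest changes among those called with a mean of at least 5 CPM, and overlapping genes; the choice of any other is marked in the text as made after seeing its values. Some genes that this rule takes are not reported here. Intervals from counts cover counting error and the spread between these libraries.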

Additional observations from a re-analysis of the deposited data

How the results depend on the processing

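The counts of 9 members higher and 15 lower were the same with RLE scaling, DESeq2, limma-voom, the robust setting off and the replicate block, which changed no call of a member. Whether the replicate numbers pair the libraries is not stated in the labels. The deviations of same-numbered libraries from their group means correlated at -0.0112, -0.0257 and -0.0216. With 3 libraries per group these values cannot decide it. When each library was left out in turn, 9 members were higher and 15 to 16 lower. Centring each chromosome gave 11 higher and 14 lower. With it, 5 genes of H3K9 methylation and HUSH were higher, against 3 in the fit as reported, and 1 factor of RNA-level restriction was lower, against 2, and Setdb1 turned to 0.11 and was called (adjusted p = 0.0262). It takes whole chromosomes, so a shift of part of one is not removed by it. Upper-quartile and library-size scaling moved the median of all genes by 0.06 and 0.07. Dnmt1, Trim28, Ehmt1, Mbd3, Zc3hav1, Rnaseh2a, Trex1, Mov10, Setdb1 and Mphosph8 crossed the threshold under at least 1 alternative, and the cause was not tested. Of the other 21 members tested, Mbd2 did not pass under any of the 16 alternatives and its log2 fold change ran from -0.09 to 0.04, above 0 with upper-quartile and library-size scaling, with genes of a mean of at least 50 counts, and without CSC replicate 2. The other 20 kept their call and direction under all 16. Depth limits Tet1, which could not be tested, and Dnmt3b.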

Other observations

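Several genes known to act on retroelements in the germ line or in pluripotent cells were at or near the lower limit of detection in both groups. L1td1, which derives from a LINE-1 open reading frame, and Mael had no count in any library. Mov10l1, the germ line relative of Mov10, averaged 0.0233 CPM in CSC and 0.00961 CPM in non-CSC, and Tex19.1 0.0354 CPM in CSC and 0.0511 CPM in non-CSC. Dnmt3l, the germ line cofactor of Dnmt3a, averaged 0 CPM in CSC and 0.0106 CPM in non-CSC, and Piwil2, which binds piRNAs, 0.446 CPM in CSC and 0.547 CPM in non-CSC without passing the test. Cgas, the sensor of cytosolic DNA, averaged 0.0596 CPM in CSC and 0.0309 CPM in non-CSC and was not tested, whereas its downstream partner Sting1 was at 93.9 CPM in CSC and 105 CPM in non-CSC. Zcchc3 was listed at 0 in every library. These genes were chosen for this paragraph after their values were seen.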
